A study of Mus musculus with 8 samples.

Results

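The 10 genes described here encode cytosolic glutathione transferases of mouse liver: 4 of the alpha class (Gsta1, Gsta2, Gsta3 and Gsta4), 4 of the mu class (Gstm1, Gstm2, Gstm3 and Gstm4) and 2 of the pi class (Gstp1 and Gstp2). They were chosen by gene symbol from a table of 55487 genes, of which 15598 passed a filter on low counts and were tested, and all 10 were among those tested. Liver RNA came from 8 mice labelled female, 1 library per mouse, in 3 groups: NemoDK_Ercc1 (n = 2, Ercc1-/Δ plus an altered Nemo allele named DK in the labels, which do not say what DK means), Ercc1 (n = 2, Ercc1-/Δ) and WT (n = 4). The Δ stands for a truncated allele and the minus sign for a null allele, so both mutant groups carry the same Ercc1 deficiency and differ by the Nemo allele. ERCC1 is a subunit of an endonuclease used in nucleotide excision and crosslink repair, and NEMO is the regulatory subunit of the kinase complex that activates NF-kB. The NemoDK_Ercc1 mice were both 11.8 weeks old, the Ercc1 mice 15.1 and 13.7 weeks, and the WT mice 10.7, 12.3, 11.1 and 11.8 weeks, so the Ercc1 mice were older than every other mouse.

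Glutathione transferases join the tripeptide glutathione to reactive electrophiles such as epoxides, quinones and aldehydes from oxidised lipids, which makes these compounds soluble and ready for export. Hepatocytes hold them in large amounts, and several alpha, mu and pi genes are known targets of NRF2, a transcription factor released under oxidative and electrophilic stress. In mouse liver the pi class is known to be more abundant in males than in females.

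Libraries held 21.6 to 27.8 M counts. Levels are in CPM, counts scaled for depth with TMM factors, and each fold change is an edgeR log2 estimate given with its standard error, with p adjusted by Benjamini-Hochberg over all tested genes and called at 0.05. WT library 3 stood apart: it had 0 Xist counts and 3087 counts of Y-linked genes, against 9331 to 15744 Xist counts and 0 to 10 Y-linked counts in the other 7 libraries, so its RNA went against its female label. Results that rest on this library are given with and without it. The summed level of 10 hepatocyte markers was 90220 to 91030 CPM in NemoDK_Ercc1, 90700 to 91630 CPM in Ercc1 and 121300 to 147900 CPM in WT, with no marker at 0 in any library. In bulk RNA, fewer cells of a type and less RNA per cell cannot be told apart.

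The alpha genes Gsta1, Gsta2 and Gm3776 on chromosome 9 are close copies of each other, which bears on their values. The first 90 coding bases of 5 alpha genes are shown because they place the genes that rose beside the one that did not; capitals mark bases that differ from Gsta3.
Gsta3: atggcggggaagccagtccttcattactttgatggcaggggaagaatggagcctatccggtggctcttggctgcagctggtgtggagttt
Gsta1: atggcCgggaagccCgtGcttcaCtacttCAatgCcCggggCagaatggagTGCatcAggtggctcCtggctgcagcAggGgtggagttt
Gsta2: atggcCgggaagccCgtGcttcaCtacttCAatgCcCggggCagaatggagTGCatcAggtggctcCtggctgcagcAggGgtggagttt
Gsta4: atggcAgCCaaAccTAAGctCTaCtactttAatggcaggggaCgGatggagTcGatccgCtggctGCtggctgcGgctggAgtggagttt
Gm3776: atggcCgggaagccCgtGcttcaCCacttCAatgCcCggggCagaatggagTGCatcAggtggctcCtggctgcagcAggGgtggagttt
In GENCODE M21 transcripts (GRCm38), Gsta1 and Gsta2 were identical over these 90 bases, and Gm3776, an alpha gene next to Gsta1, differed from them at 1 base. Gsta1 differed from Gsta3 at 16 bases and Gsta4 at 21. Over the whole coding sequence Gsta1 was 99.7% identical to Gm3776, 97.6% to Gsta2, 74.1% to Gsta3 and 66.3% to Gsta4. Of all 50-base stretches in the Gsta1 transcripts, 9.5% occurred in no other gene and 75.7% also occurred in Gm3776. The share of stretches found in no other gene was 50.2% for Gsta2, 99.7% for Gsta3 and 100% for Gsta4. Counts of Gsta1 and Gsta2 are therefore uncertain as single genes, since how reads with several alignments were counted is not given in the sources used here.

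The pi genes form a second close pair, printed in the same way with capitals where Gstp2 differs from Gstp1.
Gstp1: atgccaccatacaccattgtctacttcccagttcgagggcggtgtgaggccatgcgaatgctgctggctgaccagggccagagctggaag
Gstp2: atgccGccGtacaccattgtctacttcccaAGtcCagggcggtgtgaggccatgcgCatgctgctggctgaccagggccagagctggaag
They differed at 6 of these 90 bases and were 98.1% identical over the coding sequence. Of the 50-base stretches, 66.3% of Gstp1 and 45.7% of Gstp2 occurred in no other gene. Since 49.1% of the Gstp2 stretches occurred in Gstp1, counts of Gstp2 are uncertain as a single gene too. The mu genes were less alike. Gstm3, the mu gene with the largest fold change, is shown beside Gstm1, the one with the highest level, with capitals where Gstm3 differs.
Gstm1: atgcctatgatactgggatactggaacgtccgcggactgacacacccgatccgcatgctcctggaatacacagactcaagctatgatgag
Gstm3: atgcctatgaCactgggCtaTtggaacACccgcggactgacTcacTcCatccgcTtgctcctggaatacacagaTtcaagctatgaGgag
Gstm1 and Gstm3 differed at 11 of these bases and were 89.4% identical over the coding sequence. The share of stretches found in no other gene was 81.1% for Gstm1, 94.3% for Gstm2, 71.2% for Gstm3 and 100% for Gstm4, and the values of Gsta3, Gsta4 and Gstm4 are the least open to misassigned reads. No exon of a member overlapped an exon of another gene in this annotation.

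Against WT, most of these genes were higher in both mutant groups. In NemoDK_Ercc1 livers 6 of the 10 were called higher and 0 lower, where 10.6% of all tested genes were called higher and 7.40% lower. In Ercc1 livers 7 were called higher and 0 lower, where 11.3% of all tested genes were called higher and 9.50% lower. Over all genes this split moved with the scaling: with upper-quartile factors 13.1% were higher and 5.02% lower in NemoDK_Ercc1 and 13.3% higher and 7.32% lower in Ercc1, and with no scaling 22.5% higher and 3.14% lower in NemoDK_Ercc1 and 24.1% higher and 4.42% lower in Ercc1. Both libraries of the mutant group lay above all 4 WT libraries for 7 members in NemoDK_Ercc1 and for 7 in Ercc1, a separation found in 24.8% of all tested genes in NemoDK_Ercc1 and 21.3% in Ercc1. The median log2 change of the members was 1.25 in NemoDK_Ercc1 and 1.35 in Ercc1, with medians over all tested genes of 0.0034 in NemoDK_Ercc1 and -0.001 in Ercc1. Both comparisons use the same 4 WT libraries.

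**Figure D1:**
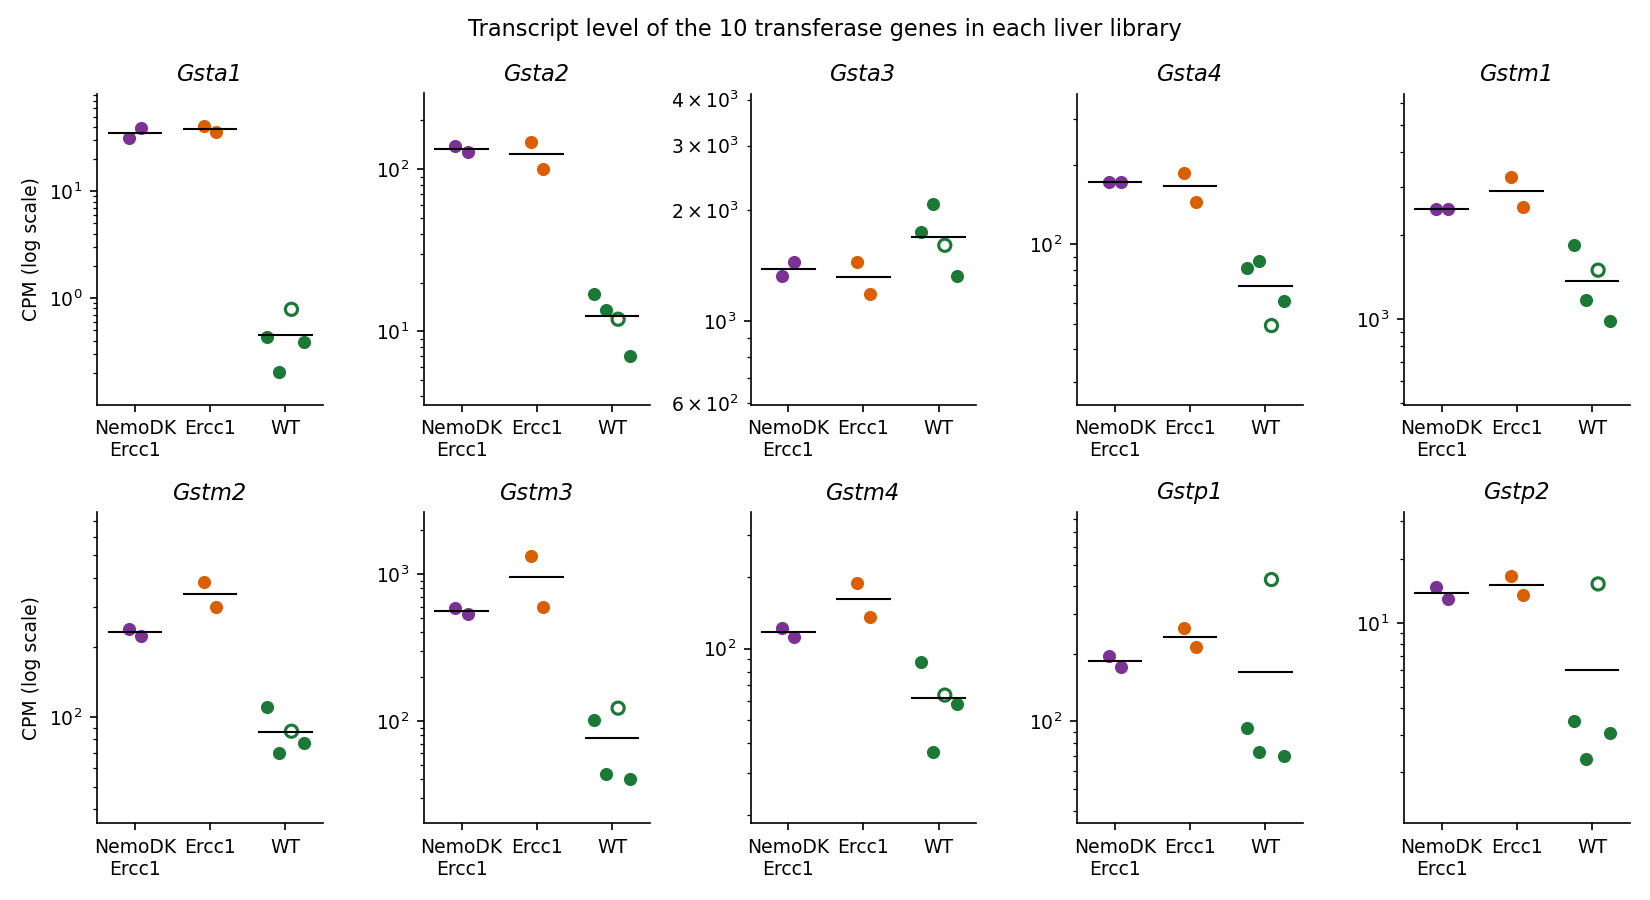
Each panel plots the CPM of 1 transferase gene (log axis) in every library of NemoDK_Ercc1 (purple), Ercc1 (orange) and WT (green), with the group mean as a bar and WT library 3 as an open circle. Gsta1 is at 31.3 to 41.1 CPM in the mutant libraries and below 1 CPM in WT, Gsta3 overlaps between groups, and for Gstp1 and Gstp2 the open circle lies apart from the other WT libraries.

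Gsta1, an inducible alpha subunit that detoxifies peroxides and electrophiles, was almost silent in WT. It had 31.3 and 38.9 CPM in NemoDK_Ercc1, 41.1 and 36.1 CPM in Ercc1 and 0.436, 0.202, 0.786 and 0.386 CPM in WT, where the 4 libraries held 9, 4, 18 and 10 counts. Every mutant library was far above every WT library. The log2 change was 6.25 ± 0.28 in NemoDK_Ercc1 against WT (edgeR, adjusted p = 3.52e-05) and 6.38 ± 0.28 in Ercc1 against WT (edgeR, adjusted p = 2.1e-05), or 75.9-fold in NemoDK_Ercc1 and 83.4-fold in Ercc1. Without WT library 3, which held 18 counts, it was 6.64 ± 0.23 in NemoDK_Ercc1 (99.9-fold) and 6.80 ± 0.23 in Ercc1 (111.5-fold). Gsta1 was called against WT in both mutant groups under all 18 alternatives.

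Gsta2, its near-identical partner, had 139 and 127 CPM in NemoDK_Ercc1, 146 and 101 CPM in Ercc1, and 17.1, 13.6, 11.9 and 7.06 CPM in WT. Every mutant library was above every WT library, the 2 mutant groups overlapped, and WT livers already held a measurable level. The log2 change was 3.42 ± 0.29 in NemoDK_Ercc1 (edgeR, adjusted p = 3.05e-04) and 3.32 ± 0.29 in Ercc1 (edgeR, adjusted p = 3.49e-04).

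Because reads could pass between Gsta1, Gsta2 and their neighbours Gm3776 and Gm10639, the 4 were also summed in each library. The sum was 198.9 and 197.4 CPM in NemoDK_Ercc1, 228.2 and 164.3 CPM in Ercc1, and 18.4, 14.1, 12.9 and 7.76 CPM in WT. The sum does not depend on which of these 4 copies a read was given to. It would still change if reads with several alignments were left out or counted more than once. Gsta2 also shares stretches with Gm8074 and Gm2693, which are not in the sum. On this sum the mutant livers were again above all WT livers. Gm3776 alone had 23.5 and 23.6 CPM in NemoDK_Ercc1, 32.3 and 21.2 CPM in Ercc1, and 0.581, 0.151, 0.0873 and 0.0386 CPM in WT, a log2 change against WT of 6.82 ± 0.48 in NemoDK_Ercc1 and 7.001 ± 0.48 in Ercc1. Gm10639 rose by 5.03 ± 0.32 in NemoDK_Ercc1 and 5.19 ± 0.32 in Ercc1 on the log2 scale.

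Gsta4, whose product is known for conjugating hydroxynonenal from oxidised lipids, was 172.6 and 172.4 CPM in NemoDK_Ercc1, 188 and 145 CPM in Ercc1, and 81.4, 86.8, 49.1 and 61.0 CPM in WT. All mutant libraries exceeded all WT libraries. Its log2 change was 1.31 ± 0.22 in NemoDK_Ercc1 (edgeR, adjusted p = 0.00616) and 1.26 ± 0.22 in Ercc1 (edgeR, adjusted p = 0.00616). The call ended without Ercc1 library 1 in Ercc1 against WT (1.06, adjusted p = 0.0623). In NemoDK_Ercc1 against WT it ended without NemoDK_Ercc1 library 1 (1.31, 0.0559) or library 2 (1.31, 0.0531).

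Gsta3, the alpha gene on chromosome 1 whose mouse product is known for conjugating the aflatoxin epoxide, did not follow the others. It had 1326 and 1447 CPM in NemoDK_Ercc1, 1446 and 1186 CPM in Ercc1, and 1743, 2079, 1608 and 1330 CPM in WT. The ranges overlapped, and the log2 change was -0.29 in NemoDK_Ercc1 (95% interval -0.72 to 0.15, adjusted p = 0.329) and -0.36 in Ercc1 (-0.80 to 0.07, adjusted p = 0.213) by edgeR. These intervals leave out a 2-fold rise and a 2-fold fall. Whether its fold change differed from those of the other alpha genes was not tested as an interaction, but its intervals end below those of Gsta1, Gsta2 and Gsta4 in both comparisons.

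Gsta3 was the main alpha transcript in every library, and the summed class counts stayed within the WT spread while the shares of its genes differed. Summed counts of the 4 alpha members were 1727 ± 83.4 CPM in NemoDK_Ercc1, 1644 ± 250 CPM in Ercc1 and 1772 ± 327 CPM in WT (mean ± SD, n = 2, 2 and 4). Within that sum Gsta3 held 80.3% ± 1.1 in NemoDK_Ercc1, 80.1% ± 0.99 in Ercc1 and 95.4% ± 0.71 in WT. Gsta4 held 9.98% in NemoDK_Ercc1, 10.1% in Ercc1 and 3.92% in WT. Gsta2 held 7.71% in NemoDK_Ercc1, 7.44% in Ercc1 and 0.692% in WT, and Gsta1 2.03% in NemoDK_Ercc1, 2.36% in Ercc1 and 0.0269% in WT. Each share lay outside the WT range in all 4 mutant libraries, and no scaling between libraries enters it. These sums and shares are of counts, without correction for length. Merged exons span 4344 bases in Gsta3 and 956 to 1266 in the other alpha members. Per kilobase of exon, scaled to 1 total per library, Gsta3 was at 889 in NemoDK_Ercc1, 853 in Ercc1 and 875 in WT. In the same order Gsta4 was at 379, 370 and 124, Gsta2 at 314, 295 and 23.7, and Gsta1 at 102, 114 and 1.07. On that scale the class as a whole was thus higher in both mutant groups than in WT.

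**Figure D2:**
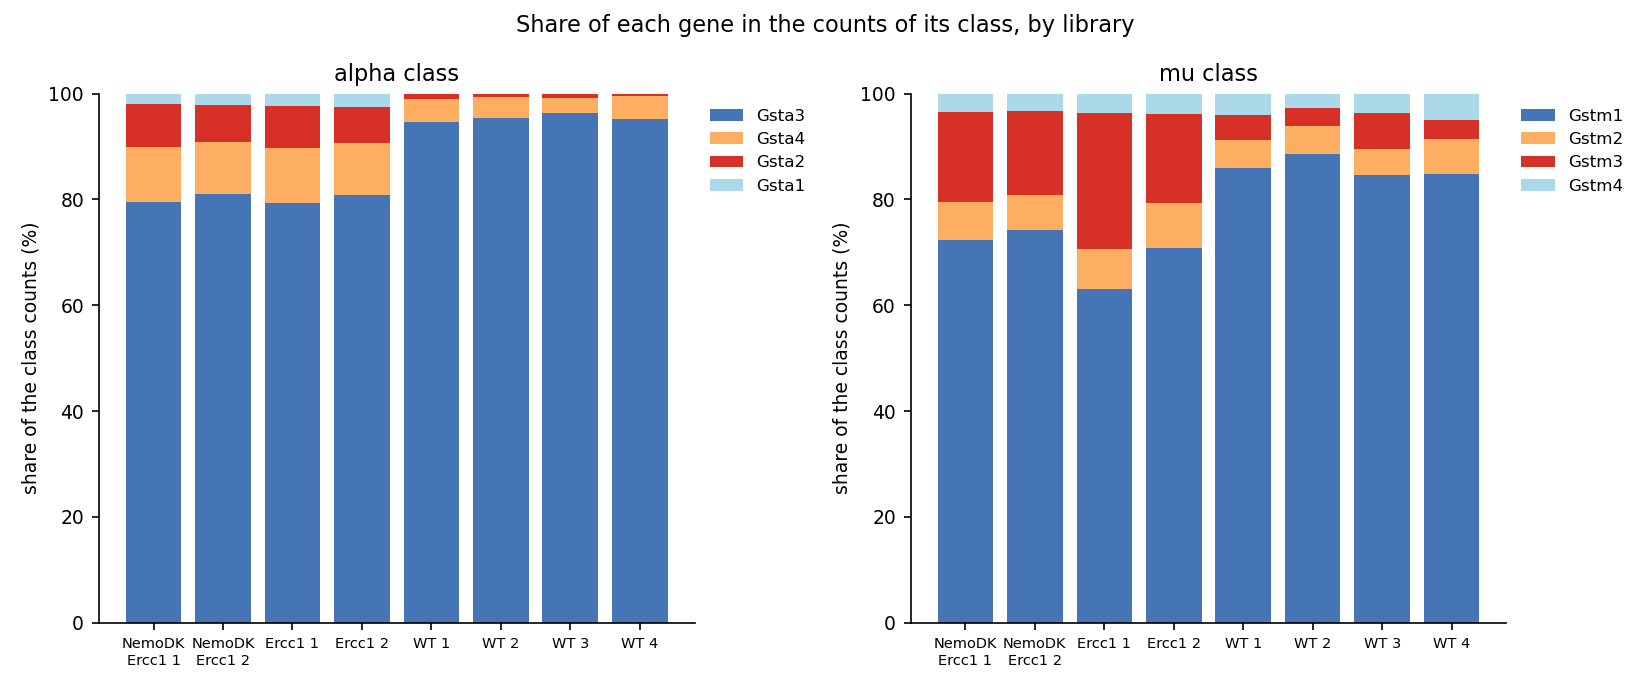
Stacked bars give the percent of the summed alpha counts (left) and mu counts (right) held by each gene in each library, NemoDK_Ercc1 first, then Ercc1 and WT. Gsta3 takes 79.4 to 81.1% of the alpha counts in mutant libraries and 94.6 to 96.3% in WT, and the Gstm3 segment is widest in Ercc1 library 1 at 25.8%.

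The summed mu counts were higher in every mutant library than in any WT library. The 4 members summed to 3401 ± 48.1 CPM in NemoDK_Ercc1, 4349 ± 1120 CPM in Ercc1 and 1598 ± 447 CPM in WT (mean ± SD, n = 2, 2 and 4).

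Gstm1, the most abundant mu transferase of the liver, had 2487 and 2499 CPM in NemoDK_Ercc1, 3244 and 2522 CPM in Ercc1, and 1844, 1168, 1499 and 983 CPM in WT. The groups did not overlap, and within WT the highest library was nearly double the lowest. The log2 change was 0.86 ± 0.24 in NemoDK_Ercc1 (edgeR, adjusted p = 0.0396) and 1.07 ± 0.24 in Ercc1 (edgeR, adjusted p = 0.0157). The NemoDK_Ercc1 call was kept in 11 of 18 alternatives. Its adjusted p was 0.0708 without WT library 2, 0.0632 without WT library 4, 0.0531 without either Ercc1 library, 0.192 and 0.188 without NemoDK_Ercc1 library 1 or 2, and 0.0513 when only those 2 groups were fitted. The Ercc1 call ended without Ercc1 library 1 (0.87, adjusted p = 0.126).

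Gstm2 had 241 and 225 CPM in NemoDK_Ercc1, 384 and 298 CPM in Ercc1, and 111, 69.6, 86.8 and 77.0 CPM in WT. Each mutant library was at least double the highest WT library. Its log2 change was 1.44 ± 0.19 in NemoDK_Ercc1 (edgeR, adjusted p = 0.00236) and 1.99 ± 0.19 in Ercc1 (edgeR, adjusted p = 5.42e-04).

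Gstm3 had the largest change of the class: 586 and 531 CPM in NemoDK_Ercc1, 1324 and 601 CPM in Ercc1, and 101, 43.7, 122 and 40.2 CPM in WT. Ercc1 library 1 was the highest of all, and the WT libraries fell into a higher and a lower pair. The log2 change was 2.87 ± 0.47 in NemoDK_Ercc1 (edgeR, adjusted p = 0.00559) and 3.65 ± 0.48 in Ercc1 (edgeR, adjusted p = 0.00192), or 7.29-fold in NemoDK_Ercc1 and 12.6-fold in Ercc1. Without WT library 3 it was 3.18 ± 0.45 in NemoDK_Ercc1 and 3.99 ± 0.46 in Ercc1. Without Ercc1 library 1 the change in Ercc1 against WT was 2.97, still called. Gstm3 held 16.4% of the mu counts in NemoDK_Ercc1, 21.4% in Ercc1 and 4.59% in WT, and Gstm1 held 73.3% in NemoDK_Ercc1, 67.0% in Ercc1 and 86.0% in WT.

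Gstm4 had 122 and 112 CPM in NemoDK_Ercc1, 188 and 136 CPM in Ercc1, and 87.9, 36.8, 63.7 and 58.5 CPM in WT. It lay above WT in every mutant library. The log2 change of 1.39 ± 0.28 in Ercc1 was called (edgeR, adjusted p = 0.0107), but not without Ercc1 library 1 (1.14, 0.0961). That of 0.92 ± 0.28 in NemoDK_Ercc1 missed the threshold (edgeR, adjusted p = 0.0549, and 0.00512 to 0.254 over 18 alternatives, 7 of which called it). Its share of the mu counts was 3.44% in NemoDK_Ercc1, 3.74% in Ercc1 and 3.88% in WT, within the WT range in all 4 mutant libraries.

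The pi genes turned on 1 library. Gstp1, which conjugates a wide range of electrophiles, had 196 and 175 CPM in NemoDK_Ercc1, 260.2 and 215 CPM in Ercc1, and 93.5, 72.9, 429 and 70.4 CPM in WT. Gstp2 had 14.7 and 13.01 CPM in NemoDK_Ercc1, 16.5 and 13.5 CPM in Ercc1, and 3.49, 2.32, 15.2 and 3.05 CPM in WT. For both genes WT library 3 was the high one, and the other 3 WT libraries lay below every mutant library.

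With all 4 WT libraries, the log2 change of Gstp1 was 0.16 ± 0.70 in NemoDK_Ercc1 (edgeR, adjusted p = 0.900) and 0.51 ± 0.69 in Ercc1 (edgeR, adjusted p = 0.626), and neither was called. Without WT library 3 they were 1.23 ± 0.16 in NemoDK_Ercc1 (edgeR, adjusted p = 0.00211) and 1.61 ± 0.16 in Ercc1 (edgeR, adjusted p = 6.01e-04). For Gstp2 with all WT libraries, the values were 1.20 ± 0.64 in NemoDK_Ercc1 (edgeR, adjusted p = 0.226) and 1.31 ± 0.64 in Ercc1 (edgeR, adjusted p = 0.179). Without library 3 they were 2.22 ± 0.20 in NemoDK_Ercc1 (edgeR, adjusted p = 3.43e-04) and 2.36 ± 0.20 in Ercc1 (edgeR, adjusted p = 2.48e-04). With all libraries, Gstp2 in Ercc1 was also called with no filter (adjusted p = 0.0349) and by limma-voom (adjusted p = 0.0375). Leaving WT library 3 out brought the members called higher to 8 of 10 in NemoDK_Ercc1 and 9 of 10 in Ercc1. Over the whole table that fit called 1672 genes higher and 1344 lower in NemoDK_Ercc1, and 1845 higher and 1563 lower in Ercc1. In WT library 3, 14 male-biased liver genes summed to 10600 CPM, against 711.7 to 1334 CPM in the other 7 libraries. The sum of 14 female-biased genes was 32.9 CPM in WT library 3 and 5119 to 7391 CPM in the other WT libraries. It was 1590 to 2951 CPM in NemoDK_Ercc1 and 913.5 to 1916 CPM in Ercc1, below those other WT libraries. With all WT libraries in the fit, 0 of these 14 genes were called lower in either mutant group. The part of these sex-biased differences in the pi levels was not tested.

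Gstp2 held 6.94% of the pi counts in NemoDK_Ercc1, 5.94% in Ercc1 and 3.57% in WT. The WT range was 3.08 to 4.15%, and library 3, at 3.43%, lay among the other WT libraries. The part of misassigned Gstp1 reads in the Gstp2 counts was not tested. Gstp3, the third gene of the cluster, had 603.2 to 611.9 CPM in NemoDK_Ercc1, 490.3 to 506.7 CPM in Ercc1, and 522.7 to 949.8 CPM in WT. Its log2 change was -0.25 ± 0.22 in NemoDK_Ercc1 (edgeR, adjusted p = 0.460) and -0.53 ± 0.22 in Ercc1 (edgeR, adjusted p = 0.118), not called in either.

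**Figure D3:**
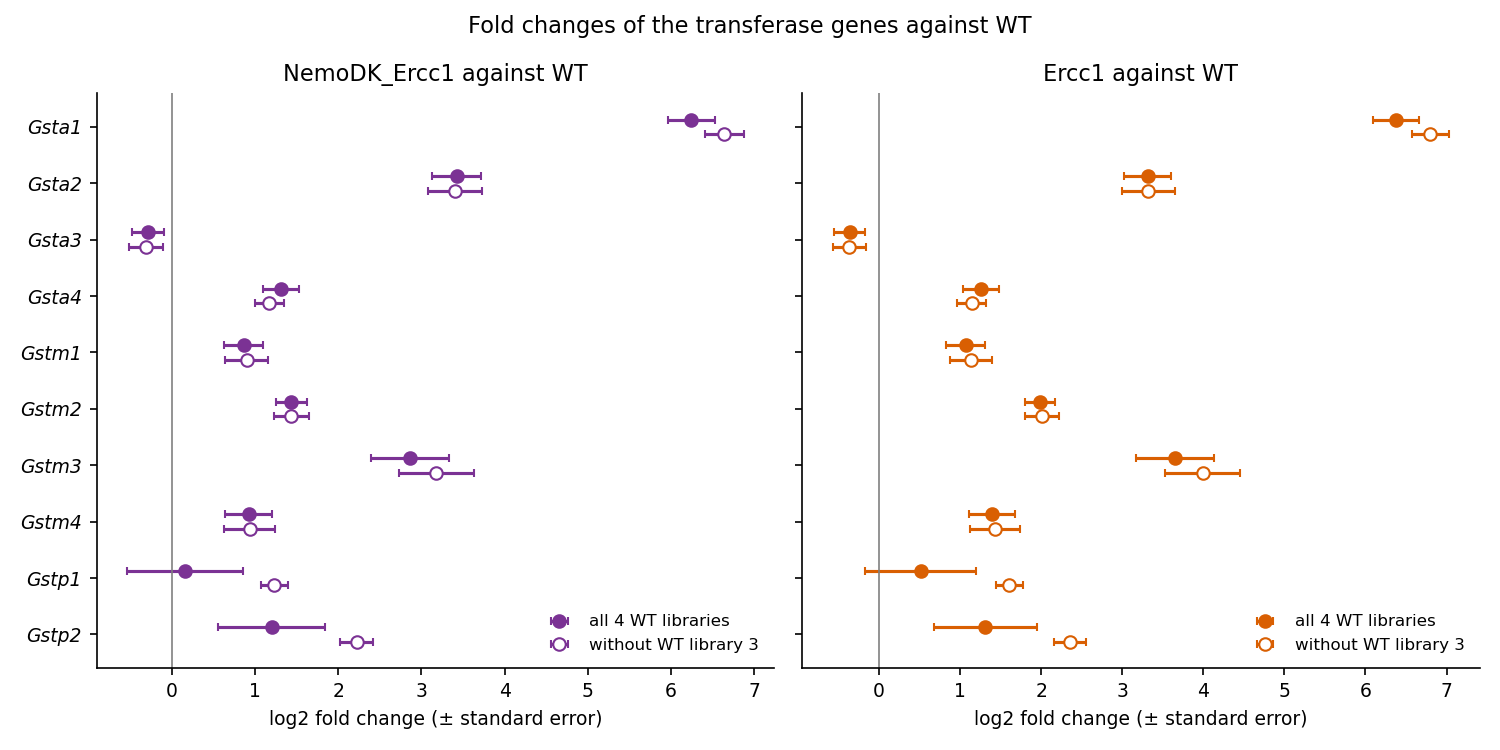
The log2 fold change ± standard error of each gene is plotted against WT for NemoDK_Ercc1 (left) and Ercc1 (right), with all 4 WT libraries (filled) and without WT library 3 (open). Filled and open points lie close together for most alpha and mu genes. Without that library Gsta1 lies at 6.64 in NemoDK_Ercc1 and 6.80 in Ercc1, and Gstm3 at 3.18 in NemoDK_Ercc1 and 3.99 in Ercc1. Gstp1 then lies at 1.23 in NemoDK_Ercc1 and 1.61 in Ercc1, and Gstp2 at 2.22 in NemoDK_Ercc1 and 2.36 in Ercc1.

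Age moved with the Ercc1 genotype, since both Ercc1 mice were older than any WT mouse, and the 2 cannot be told apart in that comparison. With age as a covariate, 1 of the 10 members was called in Ercc1 against WT: Gsta1, at 6.66 ± 0.72 (edgeR, adjusted p = 0.0280). Over the whole table that fit called 24 genes higher and 17 lower in this comparison. Gsta2 was at 3.41 ± 0.77 (adjusted p = 0.129), Gstm2 at 2.43 ± 0.49 (0.104), Gstm3 at 4.71 ± 1.45 (0.208), Gstm4 at 2.31 ± 0.73 (0.213), Gstm1 at 1.68 ± 0.61 (0.260) and Gsta4 at 0.75 ± 0.52 (0.535) by the same edgeR fit. The standard errors were larger than without age for all 7 genes, and the estimate fell for Gsta4. The NemoDK_Ercc1 mice were within the WT age range, and there 7 members were called with age in the fit, Gstm4 among them (1.05 ± 0.29, edgeR, adjusted p = 0.0444). In NemoDK_Ercc1 against WT the fit with age called 1584 genes higher and 1058 lower over the whole table.

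Between the 2 mutant groups no member was called (edgeR), and at an unadjusted p under 0.05 there was 1 of 10, Gstm2. Over all tested genes 0% were called higher and 0% lower, and 6.81% had an unadjusted p under 0.05. DESeq2 called 71 genes over the whole table and 0 members. All 4 mu genes and Gstp1 were lower in both NemoDK_Ercc1 libraries than in both Ercc1 libraries, which makes 5 of 10 members, where 19.7% of all tested genes were separated that way. None was separated upward, where 23.1% of all tested genes were. The log2 change was -0.55 for Gstm2 (95% interval -1.07 to -0.03, edgeR, adjusted p = 0.720), -0.79 for Gstm3 (-2.07 to 0.50), -0.47 for Gstm4 (-1.24 to 0.29), -0.21 for Gstm1 (-0.85 to 0.44) and -0.36 for Gstp1 (-2.19 to 1.48). The alpha genes lay nearer to 0: -0.14 for Gsta1 (-0.73 to 0.46), 0.11 for Gsta2 (-0.66 to 0.88), 0.08 for Gsta3 (-0.42 to 0.57) and 0.05 for Gsta4 (-0.55 to 0.65). With 2 mice a group these intervals are wide, so equal levels are not shown. Age differed here too, with 11.8 weeks in NemoDK_Ercc1 against 15.1 and 13.7 weeks in Ercc1.

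Levels of different genes can be compared only per length, here as counts per kilobase of merged exons scaled to 1 total in every library. On that scale Gstm1 was the highest member in every group, at 4712 in NemoDK_Ercc1, 5512 in Ercc1 and 2099 in WT. Gstm3 was second in both mutant groups, at 1186 in NemoDK_Ercc1 and 2066 in Ercc1, and at 132 in WT. Gsta3 followed at 889 in NemoDK_Ercc1 and 853 in Ercc1, and was second in WT at 875. The place of Gsta3 depends on its merged exon length, 4344 bases against 1473 for Gstm1 and 1311 for Gstm3. Their coding sequences are close in length, at 663, 654 and 654 bases. Which Gsta3 transcripts were expressed was not tested. By CPM, Gsta3 was above Gstm1 in WT libraries 2, 3 and 4, and below it in WT library 1 and every mutant library.

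In WT the order went on with Gstp1 (244), Gstm3 (132), Gsta4 (124), Gstm2 (116) and Gstm4 (81.7), whose ranges over libraries overlap their neighbours', and then Gsta2 (23.7), Gstp2 (12.3) and Gsta1 (1.07). Without WT library 3, Gstp1 was at 114 and Gstp2 at 5.97 on this scale, and Gsta4 (135), Gstm2 (115), Gstp1, Gstm3 (105) and Gstm4 (80.5) followed Gsta3. In Ercc1 it went on with Gstm2 (572), Gstp1 (432), Gsta4 (370.4), Gsta2 (295), Gstm4 (267.5), Gsta1 (114) and Gstp2 (38.0). The ranges of Gstp1 and Gsta4, of Gsta4 and Gsta2, and of Gsta2 and Gstm4 overlapped there. In NemoDK_Ercc1 Gstm2 (386), Gsta4 (379), Gstp1 (334) and Gsta2 (314) came next, then Gstm4 (191), Gsta1 (102) and Gstp2 (34.6), and the ranges overlapped between Gstm2 and Gsta4 and between Gstp1 and Gsta2. The lowest member was Gstp2 in both mutant groups and Gsta1 in WT. Counts of Gsta1, Gsta2 and Gstp2 are uncertain as single genes, as said above, so their places in these orders are uncertain too.

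By position the rises lay together in the clusters (GRCm38, GENCODE M21). On chromosome 9, 5 alpha genes lie in a row between 78182774 and 78355788: Gsta4, Gsta1, Gm3776, Gm10639 and Gsta2. All 5 were called higher in both mutant groups. Reads could pass between Gsta1, Gm3776, Gm10639 and Gsta2, so their calls are not separate observations. The Gsta4 call ended without Ercc1 library 1 in Ercc1 against WT, and without either NemoDK_Ercc1 library in the other comparison. Gsta3, the member that was not, lies apart on chromosome 1 at 21240589 to 21265661. On chromosome 3, 7 mu genes lie between 107895821 and 108044894, in the order Gstm5, Gstm7, Gstm6, Gstm3, Gstm2, Gstm1 and Gstm4. The 4 at the far end are the members. Of the other 3, Gstm5 was called, at 0.52 ± 0.14 in NemoDK_Ercc1 (edgeR, adjusted p = 0.0354) and 0.59 ± 0.14 in Ercc1 (edgeR, adjusted p = 0.0198). Those calls ended without either Ercc1 library in Ercc1 against WT (0.115 and 0.0659), and without NemoDK_Ercc1 library 1 (0.273) or 2 (0.121) or WT library 2 (0.0622), 3 (0.0534) or 4 (0.0798) in the other comparison. Gstm7 was at -0.09 ± 0.24 in NemoDK_Ercc1 and 0.18 ± 0.24 in Ercc1, and Gstm6 at 0.16 ± 0.35 in NemoDK_Ercc1 and 0.51 ± 0.35 in Ercc1, none called. On chromosome 19 Gstp1, Gstp2 and Gstp3 lie between 4035407 and 4059569.

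**Figure D4:**
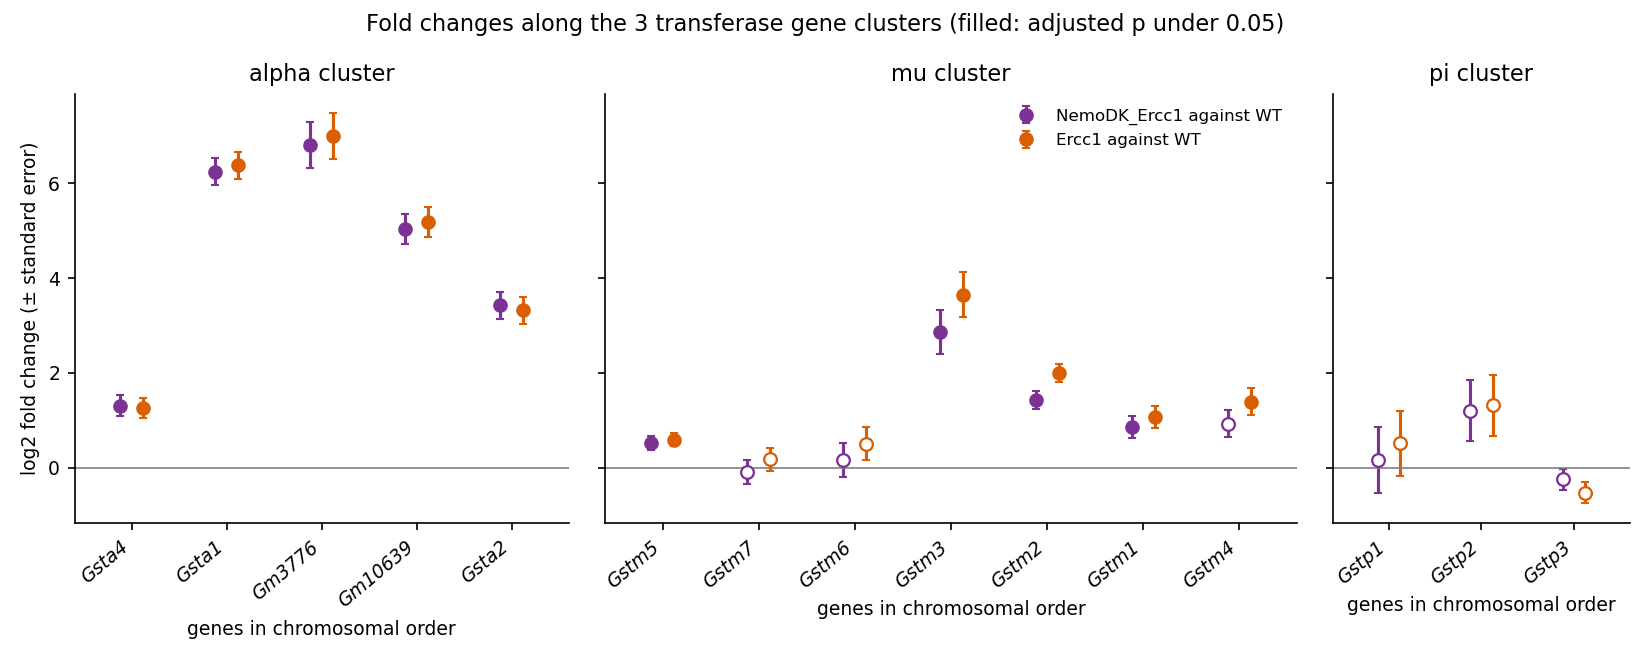
Log2 fold changes ± standard error against WT are drawn for the genes of the alpha, mu and pi clusters in chromosomal order, NemoDK_Ercc1 in purple and Ercc1 in orange, filled where adjusted p is under 0.05. The alpha cluster peaks at Gm3776 (6.82 in NemoDK_Ercc1, 7.001 in Ercc1) and the mu cluster at Gstm3 (2.87 in NemoDK_Ercc1, 3.65 in Ercc1). Gstm7, Gstm6 and all pi genes are open in both comparisons, and Gstm4 is open in NemoDK_Ercc1.

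Promoter windows were compared because Gsta1 and Gsta2 moved together and Gsta3 did not. RefSeq windows (GRCm38.p6, 250 bases before to 50 after the start) were at hand for 9 of the 10 members. They were searched on both strands for TGACNNNGC, the core of the antioxidant response element, to which NRF2 binds. The motif was found in the window of 1 of these 9 members, Gsta3, at 120 bases before the start. Of the 27025 genes with a window, 14.0% held it in at least 1, and over all 32851 windows, of which some genes have several, 12.4% held it. No match says only that these letters are not in this window. The windows of Gsta1 (chr9:78230419-78230718, plus strand), Gsta2 (chr9:78347096-78347395, minus strand) and Gsta3 (chr1:21240335-21240634, plus strand) are printed with the match in capitals.
Gsta1: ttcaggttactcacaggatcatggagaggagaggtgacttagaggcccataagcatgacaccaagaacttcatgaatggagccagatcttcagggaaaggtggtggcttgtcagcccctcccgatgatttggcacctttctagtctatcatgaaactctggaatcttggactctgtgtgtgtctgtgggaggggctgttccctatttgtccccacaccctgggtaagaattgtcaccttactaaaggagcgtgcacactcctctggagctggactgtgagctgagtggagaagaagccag
Gsta2: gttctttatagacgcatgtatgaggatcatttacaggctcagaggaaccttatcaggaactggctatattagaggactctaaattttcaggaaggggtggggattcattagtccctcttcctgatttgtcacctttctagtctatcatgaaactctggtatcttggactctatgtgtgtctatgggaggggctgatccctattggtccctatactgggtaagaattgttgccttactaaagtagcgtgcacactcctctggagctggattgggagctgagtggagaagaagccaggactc
Gsta3: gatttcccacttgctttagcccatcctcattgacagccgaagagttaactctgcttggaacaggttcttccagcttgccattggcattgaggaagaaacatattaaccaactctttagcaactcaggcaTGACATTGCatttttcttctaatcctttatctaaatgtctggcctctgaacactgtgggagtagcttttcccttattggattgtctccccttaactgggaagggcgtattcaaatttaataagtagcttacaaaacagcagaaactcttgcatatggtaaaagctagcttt
Aligned end to end, the Gsta1 window was 90.7% identical to that of Gm3776, 88.6% to that of Gm10639, 74.6% to that of Gsta2 and 50.5% to that of Gsta3. For comparison, the Gstp1 and Gstp2 windows were 76.4% identical. Against windows of mu and pi genes, the Gsta1 window ranged from 45.2% (Gstp2) to 51.1% (Gstm2). The 50.5% of Gsta1 and Gsta3 lies within that range.

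Other genes of glutathione metabolism moved less evenly. Each list below is to be read beside the shares of all tested genes called. They were 10.6% higher and 7.40% lower in NemoDK_Ercc1, and 11.3% higher and 9.50% lower in Ercc1. Of 17 further transferase genes tested, 5 were called higher and 0 lower in NemoDK_Ercc1 and 4 higher and 0 lower in Ercc1, with medians of 0.163 in NemoDK_Ercc1 and 0.479 in Ercc1. Besides the alpha and mu genes above, Hpgds, a sigma-class enzyme that makes prostaglandin D, was called at 2.13 ± 0.31 in NemoDK_Ercc1 and 1.57 ± 0.31 in Ercc1, at 0.581 to 0.856 CPM in WT. The Ercc1 call ended without Ercc1 library 2 (1.08, adjusted p = 0.0813).

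Glutathione supply showed both directions: of 20 genes of synthesis, breakdown and recycling, 1 was higher and 4 lower in NemoDK_Ercc1, and 3 higher and 2 lower in Ercc1, with medians of 0.0482 in NemoDK_Ercc1 and 0.0247 in Ercc1. Gclc, the catalytic subunit of the limiting step of synthesis, had 429.7 and 274.5 CPM in NemoDK_Ercc1, 572 and 724 CPM in Ercc1, and 239.8, 203, 234 and 220.2 CPM in WT. All mutant libraries were above WT, and NemoDK_Ercc1 library 2 was the nearest to it. The log2 change was 0.65 ± 0.19 in NemoDK_Ercc1 (edgeR, adjusted p = 0.0469) and 1.53 ± 0.19 in Ercc1 (edgeR, adjusted p = 0.00151), and the first of these was kept in 11 of 18 alternatives. It ended without NemoDK_Ercc1 library 1 (0.29, adjusted p = 0.461), Ercc1 library 1 (0.0557) or 2 (0.0554), or WT library 1 (0.0689), 2 (0.0825) or 4 (0.0905), and in a fit of only those 2 groups (0.0522). Glutathione synthetase (Gss) and glutathione reductase (Gsr) were called in Ercc1, at 0.58 ± 0.16 and 0.54 ± 0.14, but Gss kept its call in 10 and Gsr in 12 of 18 alternatives. With either Ercc1 library left out the adjusted p was 0.0614 to 0.189. Gss also lost it without WT library 1 (0.0594) or 2 (0.063), and both lost it without NemoDK_Ercc1 library 1 or 2 (0.0586 to 0.0619) or in a fit of only those 2 groups (0.0567 for Gss and 0.0532 for Gsr). Chac2, which breaks glutathione down, fell by 0.36 in NemoDK_Ercc1 and fell by 0.57 in Ercc1 on the log2 scale. The NemoDK_Ercc1 call was kept in 6 of 18 alternatives: it ended whichever of the 8 libraries was left out (adjusted p = 0.0512 to 0.313), with no filter (0.117), with upper-quartile factors (0.107), in a fit of only those 2 groups (0.0524) and with no scaling (-0.09, adjusted p = 0.561). With no scaling the Ercc1 value was -0.30 (adjusted p = 0.0664).

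Among 8 glutathione peroxidase genes, 4 were higher and 0 lower in each mutant group. Gpx4, which reduces lipid hydroperoxides in membranes, rose by 0.79 ± 0.12 in NemoDK_Ercc1 and 0.82 ± 0.12 in Ercc1, and Gpx6 by 2.96 ± 0.36 in NemoDK_Ercc1 and 2.89 ± 0.36 in Ercc1. The Gpx4 call in NemoDK_Ercc1 ended without library 2 of that group (0.71, adjusted p = 0.0612). Gpx2 had 0 counts in all 4 WT libraries, 31 in NemoDK_Ercc1 and 54 in Ercc1, which puts it at least 17.1-fold higher in NemoDK_Ercc1 and at least 28.3-fold higher in Ercc1 against a floor of 3 counts over the WT group. Of 8 conjugate exporter genes, 3 were higher and 1 lower in NemoDK_Ercc1, and 1 higher and 1 lower in Ercc1. Abcc1, which exports glutathione conjugates, rose by 0.78 ± 0.19 in NemoDK_Ercc1 and 0.88 ± 0.19 in Ercc1. Abcc6 fell by 0.58 in NemoDK_Ercc1 and fell by 0.81 in Ercc1. The NemoDK_Ercc1 call of Abcc1 was kept in 15 of 18 alternatives, and ended without NemoDK_Ercc1 library 1 (adjusted p = 0.139) or 2 (0.181) or WT library 4 (0.0522). That of Abcc6 was kept in 9 of 18: it ended without NemoDK_Ercc1 library 1 (0.261) or 2 (0.219), without WT library 1 (0.0795), 2 (0.0771) or 4 (0.0628), with upper-quartile factors (0.0871), no scaling (0.189), a filter of 1 CPM in 2 libraries (0.0517) or age (0.0658). In Ercc1, Abcc1 lost its call without Ercc1 library 2 (0.0945) and Abcc6 without Ercc1 library 1 (0.0894).

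The regulators of these genes were also measured. Nfe2l2, which encodes NRF2, had 165.1 and 143.5 CPM in NemoDK_Ercc1, 182.2 and 164.2 CPM in Ercc1, and 79.2 to 87.8 CPM in WT. It was higher in every mutant library, by 0.87 ± 0.11 in NemoDK_Ercc1 (edgeR, adjusted p = 0.00213) and 1.04 ± 0.11 in Ercc1 (edgeR, adjusted p = 9.34e-04). Of 26 genes of the NRF2 pathway with the transferases left out, 8 were higher and 0 lower in NemoDK_Ercc1 and 11 higher and 1 lower in Ercc1, with medians of 0.222 in NemoDK_Ercc1 and 0.619 in Ercc1. Ugdh, which makes the sugar donor for glucuronidation, rose by 1.71 ± 0.14 in NemoDK_Ercc1 and 2.09 ± 0.14 in Ercc1. Ephx1, an epoxide hydrolase that works beside the transferases, rose by 1.55 ± 0.20 in NemoDK_Ercc1 and 1.60 ± 0.20 in Ercc1.

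Xenobiotic receptors and their targets were mixed, with 3 higher and 1 lower of 18 in NemoDK_Ercc1 and 2 higher and 3 lower in Ercc1. Nr1i3, the receptor CAR, fell by 0.97 in NemoDK_Ercc1 and fell by 1.57 in Ercc1. The first of these was lost without NemoDK_Ercc1 library 1 (adjusted p = 0.200) or 2 (0.139), without WT library 4 (0.0565) and with no scaling (0.0581). Its partner Rxra fell by 0.58 in Ercc1, and this call was kept in 12 of 18 alternatives. It ended without Ercc1 library 1 (adjusted p = 0.161), without NemoDK_Ercc1 library 1 (0.0522) or 2 (0.0521), in a fit of only those 2 groups (0.053) and with no scaling (0.129). Rxra was at -0.43 in NemoDK_Ercc1, called by DESeq2 (0.00994) and limma-voom (0.0486) but not by edgeR. Cyp3a11, a target of the receptor PXR, rose by 2.12 ± 0.40 in NemoDK_Ercc1 and 2.04 ± 0.40 in Ercc1. Its Ercc1 call ended without Ercc1 library 2 (adjusted p = 0.0807), and its NemoDK_Ercc1 call without either library of that group (0.0792 and 0.0546). Of 12 pericentral hepatocyte genes, the zone where many transferases are known to be strongest, 0 were higher and 2 lower in NemoDK_Ercc1, and 1 higher and 4 lower in Ercc1. Slc1a2, a glutamate transporter of that zone, fell by 1.27 in NemoDK_Ercc1 and fell by 2.41 in Ercc1, and the first was lost without either NemoDK_Ercc1 library (adjusted p = 0.109 and 0.0594). Of 10 hepatocyte markers 4 were lower in NemoDK_Ercc1 and 5 in Ercc1, and none higher. The hepatocyte sums given above were thus lower in mutant livers while most transferase genes were higher, and the part of cell composition in these results was not tested. Outside the 10 members, no gene whose log2 change is given in this text was called in Ercc1 against WT with age as a covariate. The smallest of their adjusted p-values was 0.0738 (edgeR), for Gm10639. Gpx2, Xist, the male-biased genes and the genes named only for likeness were not checked.

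**Figure D5:**
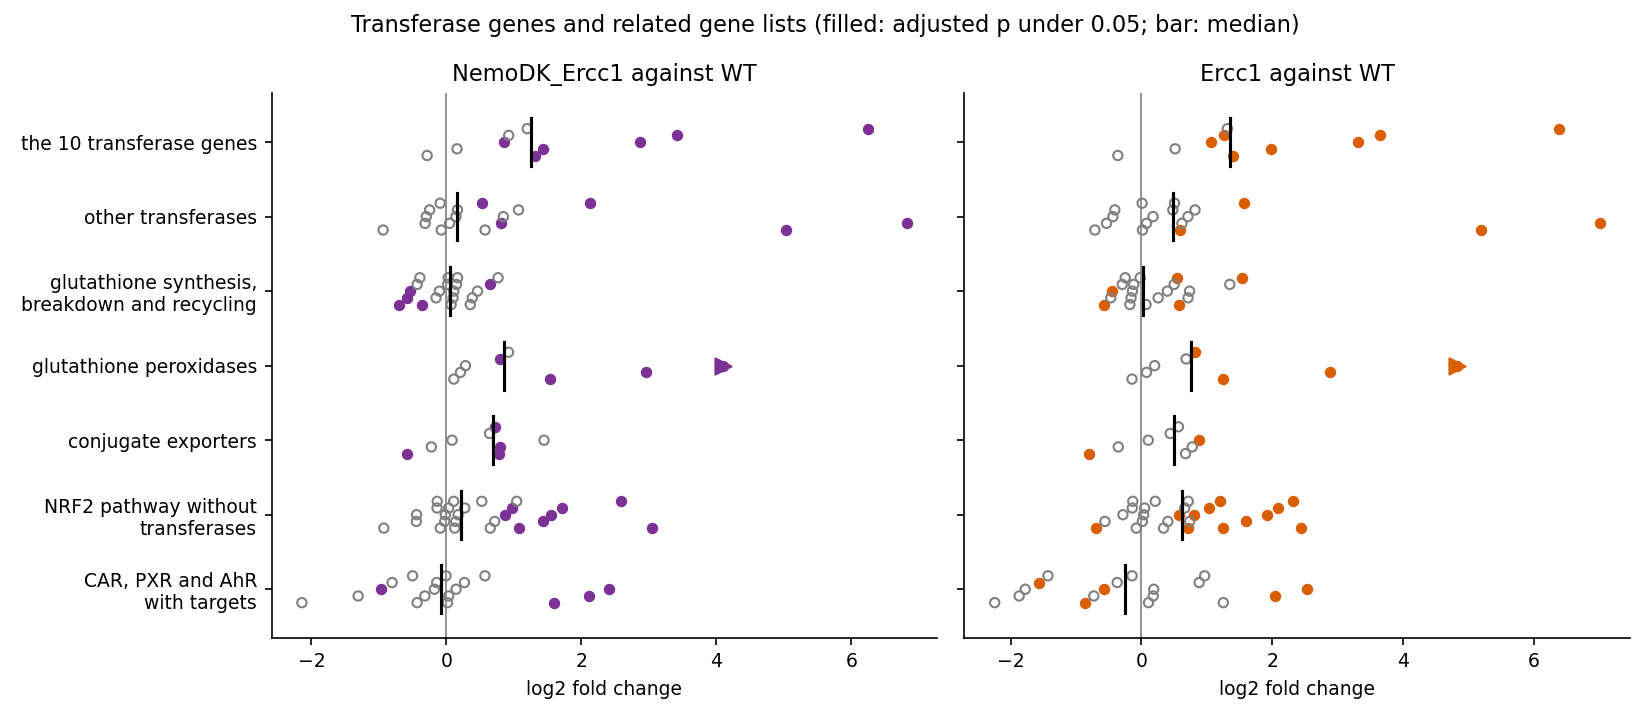
Each circle is the log2 fold change of 1 gene against WT in NemoDK_Ercc1 (left) and Ercc1 (right), by gene list, coloured where adjusted p is under 0.05, with the list median as a black bar. An arrowhead marks Gpx2, drawn at its lower bound; the median of the 10 transferase genes lies at 1.25 in NemoDK_Ercc1 and 1.35 in Ercc1, to the right of the other lists drawn (further transferases, glutathione supply, peroxidases, exporters, the NRF2 pathway, and xenobiotic receptors with their targets) in both panels.

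Markers of other liver cells were read in the same libraries. Macrophage markers summed to 479.5 to 495.1 CPM in NemoDK_Ercc1, 319.5 to 508.3 CPM in Ercc1 and 202.1 to 433.4 CPM in WT, with 3 of 9 called higher in each mutant group and no marker at 0. Stellate cell and fibroblast markers summed to 358.8 to 378.9 CPM in NemoDK_Ercc1, 231.5 to 423.5 CPM in Ercc1 and 194.2 to 267.9 CPM in WT, with 2 of 8 called higher in each. Endothelial markers summed to 203.6 to 229.1 CPM in NemoDK_Ercc1, 181.6 to 224.7 CPM in Ercc1 and 210.2 to 229.9 CPM in WT, with 2 of 7 called higher and 1 lower in NemoDK_Ercc1 and 1 higher and 1 lower in Ercc1. Erythroid markers summed to 94.2 to 237.3 CPM in NemoDK_Ercc1, 118.9 to 156.8 CPM in Ercc1 and 221.5 to 471.5 CPM in WT. Cholangiocyte markers, which belong to cells known to hold pi transferases, summed to 185.3 to 200.4 CPM in NemoDK_Ercc1, 164.6 to 187.7 CPM in Ercc1 and 152.1 to 169.7 CPM in WT, with 1 of 7 higher in each. Neutrophil markers summed to 2.25 to 2.53 CPM in NemoDK_Ercc1, 4.11 to 5.83 CPM in Ercc1 and 0.849 to 1.65 CPM in WT, with 0 of 3 called higher in NemoDK_Ercc1 and 2 in Ercc1. B and plasma cell markers summed to 11.5 to 12.4 CPM in NemoDK_Ercc1, 4.33 to 11.5 CPM in Ercc1 and 3.58 to 4.58 CPM in WT, with 2 of 4 called higher in NemoDK_Ercc1 and 0 in Ercc1. T and NK cell markers summed to 7.46 to 9.11 CPM in NemoDK_Ercc1, 3.995 to 6.82 CPM in Ercc1 and 4.32 to 6.25 CPM in WT, with 2 of 7 called higher in NemoDK_Ercc1 and 0 in Ercc1. The part of all these cells in the transferase levels was not tested.

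Across the 8 libraries, each member had close neighbours in expression, given as Pearson's r of log2 CPM and as a description: each r rests on 8 libraries in 3 groups, so for members called against WT the difference between groups enters it. Gsta1 was most like 2200002D01Rik (r = 0.995), Srd5a3 (0.995) and Large2 (0.994), and Gsta2 like Gm3776 (0.994), Rec8 (0.992) and Tsen54 (0.989). Gsta4 was most like Lrrc51 (0.995), Orm2 (0.992) and Slc22a18 (0.991). Gsta3 went with Echs1 (0.981), Dbt (0.981) and Cyld (0.976). Of the mu genes, Gstm1 went with Gstm2-ps1 (0.997), Gstm2 with Gm8834 (0.993), Gstm3 with Treh (0.989) and Gstm4 with Gas2l1 (0.991). Gstm2-ps1 and Gm8834 are processed pseudogenes of this family that share 50-base stretches with Gstm1 and Gstm3, and the part of shared reads in this likeness was not tested. Gstp1 was most like the complement genes C9 (0.984) and C6 (0.969) and the pseudogene Gstp-ps (0.982), and Gstp2 was most like Gcc2 (0.989).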

How the data were processed

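Liver RNA of 8 mice, 1 library each, was made with a stranded total RNA kit, per the labels' protocols. The authors deposited raw counts per gene, and FastQC, HISAT2 2.1.0 and featureCounts with GRCm38 are named per the submitters' processing notes. The annotation release, the strand setting and the treatment of reads with several alignments are not given in the sources used here. From these counts, edgeR 4.0.16 (R 4.3.3, limma 3.58.1) estimated 1 mean per group over all 8 libraries after filterByExpr and TMM scaling, and 3 contrasts were tested by the quasi-likelihood test, with Benjamini-Hochberg adjustment over 15598 genes and a threshold of 0.05. A standard error is the size of the log2 change over the square root of its F statistic. The fit had 5 residual and 3.67 prior degrees of freedom, shared by the 3 groups. The series text calls the mice independent biological replicates.

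The members and the gene lists were chosen with earlier results of these data known. Genes that are not members were named by a rule: of each list, up to 4 with the smallest p in Ercc1 against WT, and for each member the 3 genes with the highest correlation (average log2 CPM of at least 1, prior count 2), of which only the first is printed for some members. The settings varied were the scaling (RLE, upper quartile, none), the filter (none, or 1 CPM in 2 libraries), the tool (DESeq2 1.42.0, limma-voom, robust edgeR), the samples (a fit of 2 groups, each library left out), age as a term, and a threshold of 0.01. Exon lengths, 50-base stretches and coding sequences came from GENCODE M21, read with Biopython 1.88 in Python 3.11.15, and figures were drawn with matplotlib 3.10.9. The libraries held 21.6 to 27.8 M counts, and the level of Gsta1 in WT rests on 41 counts in all.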

Additional observations from a re-analysis of the deposited data

Results flagged for a closer look

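Of 74 genes named by the rule in the methods, 14 had a WT library that lay apart by a gap past Dixon's critical value for 4 samples, and in all 14 it was WT library 3. Chance alone does so in about 1 in 20 groups for a single gene, but that rate cannot be set against these 14 flags. They come from the same library, so they are not independent. The genes named for likeness to Gstp1 or Gstp2 were picked by correlation over these same libraries, so their flags follow in part from that choice. Gstp1 stood at 429 CPM in that library, against 70.4 to 93.5 CPM in the other WT libraries. Gstp2 stood at 15.2 CPM, against 2.32 to 3.49 CPM. Cyp2c55, a cytochrome P450 gene of the xenobiotic list, stood at 4.41 CPM, against 0.656 to 1.06 CPM. Without this library its log2 change was 3.41 in NemoDK_Ercc1 against WT and 3.56 in Ercc1 against WT, where with all libraries it was 2.41 in NemoDK_Ercc1 and 2.54 in Ercc1. Xist was at 0 CPM, against 452 to 495 CPM. Of male-biased liver genes, Serpina1e stood at 4990 CPM, against 355 to 423 CPM, Hsd3b5 at 381 CPM, against 4.79 to 8.81 CPM, Cyp7b1 at 235 CPM, against 37.8 to 56.9 CPM, and Nudt7 at 813 CPM, against 239 to 283 CPM. Of the genes most like Gstp1 or Gstp2 across libraries, C6 stood at 344 CPM, against 12.7 to 20.8 CPM, C9 at 831 CPM, against 321 to 372 CPM, and Gstp-ps at 89.5 CPM, against 14.7 to 18.5 CPM. Gcc2 was at 27.7 CPM, against 21.1 to 22 CPM, Plekhg6 at 21.1 CPM, against 12.7 to 13.9 CPM, and Gtf2b at 30.8 CPM, against 14.3 to 16.8 CPM.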

How the results depend on the processing

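Of the 3243 genes called in Ercc1 against WT by number, a fit with age as a covariate called 41, with 1 member, and a threshold of 0.01 called 1223. Leaving out 1 library gave 1157 to 3408 genes and 4 to 9 members, lowest without Ercc1 library 1 and highest without WT library 3; without Ercc1 library 2 it was 1904 genes. In NemoDK_Ercc1 against Ercc1, where 0 genes were called, 65 were with no filter, 71 with DESeq2, 1 in a fit of only those groups and 0 to 2 with a library left out, and members stayed at 0. In NemoDK_Ercc1 against WT 2800 genes were called, 926 at a threshold of 0.01 and 537 to 3016 with a library left out, lowest without NemoDK_Ercc1 library 1 and 623 without library 2. Members called there ranged from 4 to 8.

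Signs changed only for values near 0 that were not called. With a library left out, NemoDK_Ercc1 against Ercc1 ranged from -0.30 to 0.0127 for Gsta1, -0.14 to 0.40 for Gsta2, -0.0619 to 0.22 for Gsta3, -0.12 to 0.25 for Gsta4 and -0.26 to 0.0348 for Gstp2. NemoDK_Ercc1 against WT ranged from -0.10 to 1.23 for Gstp1, -0.0483 to 0.42 for Gstm6 and -0.22 to 0.0788 for Gstm7, and Ercc1 against WT from -0.0196 to 0.37 for Gstm7. In NemoDK_Ercc1 against WT, Gstm7 was also 0.0040 with upper-quartile factors, 0.18 with no scaling and 0.0182 with age, and Gstp3 was 0.0243 with no scaling. With no scaling the median of all genes shifted to 0.27 in NemoDK_Ercc1 and 0.26 in Ercc1 against WT, and the members called higher were 7 in NemoDK_Ercc1 and 7 in Ercc1, where 22.5% of all genes were called higher in NemoDK_Ercc1 and 24.1% in Ercc1. The cause of these changes was not tested, apart from the smaller number of samples when libraries were left out.

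No paired analysis was possible because the labels give the groups no shared replicate numbers. Depth limits Gsta1 and its copies in WT, where a library holds 4 to 18 Gsta1 counts.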
